A study of Mus musculus with 78 samples.

Results

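Antioxidant enzymes and targets of the transcription factor NRF2 are described here across all groups of the series through 10 genes taken by mouse symbol: Sod1, Sod2, Cat, Gpx1, Gpx4, Prdx3, Nqo1, Hmox1, Gclc and Txnrd1. Their symbols matched 10 of the 36904 gene IDs in the count table. All 10 members passed the filter on low counts, among 18218 genes tested. The study measured RNA from the soleus, a postural muscle of the lower leg, in male and female C57Bl/6 mice of different ages, and in old males given CaAKG, a calcium salt of alpha-ketoglutarate, at 2%. It holds 78 libraries of paired reads, and a pair of libraries with the same animal tag was summed, which left 77 replicates in 11 groups.

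In batch 1 all mice were untreated controls. There were 4 females and 6 males of 6 months, 6 females and 6 males of 12 months, 6 females and 9 males of 20 months, and 6 females and 5 males of 28 months. In batch 2 all mice were 28 months old, with 7 females and 10 males as controls and 12 males given CaAKG. The labels write 28 months as M28, and they give a batch number without saying what a batch was. Per the series' design text, the mice of 6 and 12 months came from a supplier in Singapore and those of 20 months from a supplier in the USA, so age and supplier cannot be told apart between them. Mice for the compound study arrived at 17 months and were then randomized. The labels name separate mice as replicates, and no substrain of C57Bl/6 is given.

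Superoxide leaks from the respiratory chain and is turned into hydrogen peroxide by superoxide dismutases, SOD1 mainly in the cytosol and SOD2 in the mitochondrial matrix. Catalase, glutathione peroxidases and peroxiredoxins then remove peroxides, and the latter families draw electrons from glutathione and thioredoxin. NRF2, encoded by Nfe2l2, is kept low by KEAP1 in unstressed cells; under oxidants or electrophiles it binds antioxidant response elements together with small MAF proteins, at sites where BACH1 can hold genes such as Hmox1 silent. The soleus is rich in slow, mitochondria-dense fibres.

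The core letters of the antioxidant response element, TGACNNNGC, were searched on both strands of 300 bases around each transcription start, 250 before and 50 after, in RefSeq sequences of build GRCm38.p6. A match occurred in 12.4% of 32851 promoters. Of the members, 8 had promoters in the table, 13 promoters in all, and 2 promoters held a match, 1 of Sod1 and 1 of Txnrd1. They are shown with a promoter of Prdx1 and one of Abcc4, a peroxiredoxin and an efflux pump from the pathway lists below that also held a match. Capitals mark the match and lower case the flanking bases, each read 5′ to 3′ on the gene's strand.
Sod1, chr16:90220696-90220724, plus strand: gccaaggtggGCGTGGTCAgactcaggcc
Txnrd1, chr10:82859104-82859132, plus strand: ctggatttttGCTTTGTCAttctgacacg
Prdx1, chr4:116685456-116685484, plus strand: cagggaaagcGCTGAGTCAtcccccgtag
Abcc4, chr14:118676936-118676964, minus strand: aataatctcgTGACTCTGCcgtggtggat
In the Sod1 promoter the match began 56 bases before the start, and in the Txnrd1 promoter 92 bases before it; in both the core reads on the opposite strand. These are matches of letters, not measured binding sites.

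Library totals, in units of 1e6 counts, ran from 19.5 to 81.6 with a median of 35.2, and transcripts of the mitochondrial genome took 10.1 to 46.5% of them. All 7 slow fibre markers were detected in every group, with a summed level from 7853 to 48390 CPM, counts scaled to a library total of 1e6. By sex-linked transcripts, 5 libraries went against their sex label: replicates 1 and 4 of the 12-month females, replicate 3 of the 6-month females, replicate 3 of the 12-month males and replicate 3 of the 6-month males. Skin or marrow transcripts stood out in 9 libraries, which were replicates 8, 10 and 12 of the batch 1 females of 28 months, replicate 4 of the batch 2 control males, replicate 5 of the 12-month females and replicates 6, 7, 8 and 10 of the CaAKG males. Calls of members that are lost when either set of libraries is left out are named below. In bulk tissue, fewer cells of a type and less RNA per cell cannot be told apart.

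Per kilobase of transcript, the scale on which levels of different genes can be set side by side, Gpx4 had the highest mean level over all replicates at 390 CPM per kb. Each length was that of an annotated transcript, not one measured here, and the order depends on it. Sod1 followed at 197, Prdx3 at 112.6, Cat at 89.96 and Sod2 at 53.4 CPM per kb. Nqo1 and Gpx1 lay close together at 37.5 and 37.4 CPM per kb, Txnrd1 at 23.7, Gclc at 5.73 and Hmox1 lowest at 4.24 CPM per kb. The peroxide and superoxide enzymes thus lay above the inducible NRF2 targets in these samples, with Gpx1 just below Nqo1. All other levels below are CPM, comparable between samples within a gene only. When each gene's 11 groups were ordered by mean level, neighbours overlapped in range throughout, except for Sod1 between the males of 28 months in batch 1 and batch 2, and for Txnrd1 between the 6-month males and the 6-month females.

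**Figure D1:**
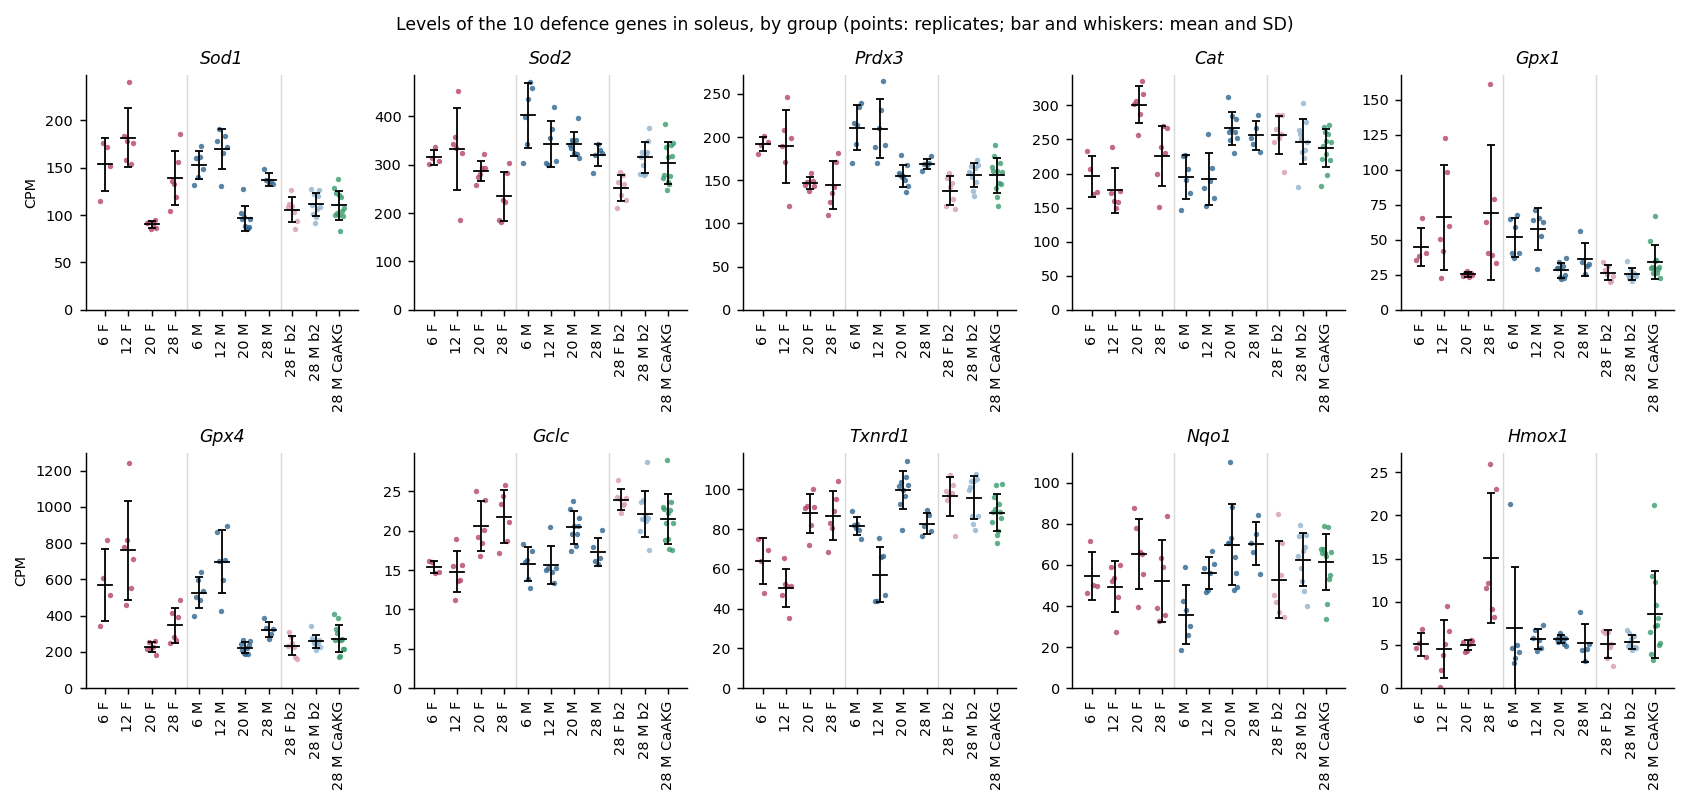
Levels of the 10 members in CPM, 1 panel per gene, by group on the x axis; points are replicates, and lines give the mean and SD, cut at 0. Sod1 and Gpx4 sit lowest at 20 months, and Hmox1 is highest and most spread in the batch 1 females of 28 months.

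Against 6 months, more members changed at 20 months than at 28 or 12 months. Sod1, Gpx1, Gpx4 and Prdx3 were lower at 20 months in both sexes, and Cat, Gclc and Txnrd1 were higher in both sexes. In females 7 of 10 members passed the threshold of 0.05 on the adjusted p of edgeR's quasi-likelihood test, against 36% of all genes, with 3 higher where 18.2% of genes were and 4 lower where 17.8% were. In males 8 of 10 passed, against 44.6% of all genes, with 4 higher against 22.6% and 4 lower against 22%. The median log2 fold change of the members was -0.083 in females and -0.27 in males, beside 0.0017 and 0.024 over all genes. Ranges of the 20-month and 6-month groups did not overlap for 6 members in females and for 3 in males, against 34.9% and 24.9% of all genes. Summed endothelial markers (8 of 8 detected) also did not overlap, at 432 to 586 CPM in the 20-month females against 108 to 298 at 6 months, and at 457 to 637 against 79.8 to 171 in males; their part in the members' changes was not tested.

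At 28 months in batch 1 the changes against 6 months were fewer. In females 6 of 10 members passed, against 18.9% of all genes, 3 higher where 9.91% were and 3 lower where 9.04% were. In males 4 of 10 passed, against 16.1% of all genes, 2 higher where 6.76% were and 2 lower where 9.38% were. The members' median was 0.070 in females and -0.23 in males, beside 0.091 and 0.019 over all genes. At 12 months 0 of 10 passed in females, where 0.231% of all genes did. There 1 member was under an unadjusted p of 0.05, where 2647 of 18218 genes were, and DESeq2 and limma-voom also called 0. In the 12-month males 2 of 10 passed, against 9.85% of all genes, 1 higher where 3.02% were and 1 lower where 6.82% were. All these contrasts share the 6-month groups, so their values are set side by side and not counted as separate evidence.

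**Figure D2:**
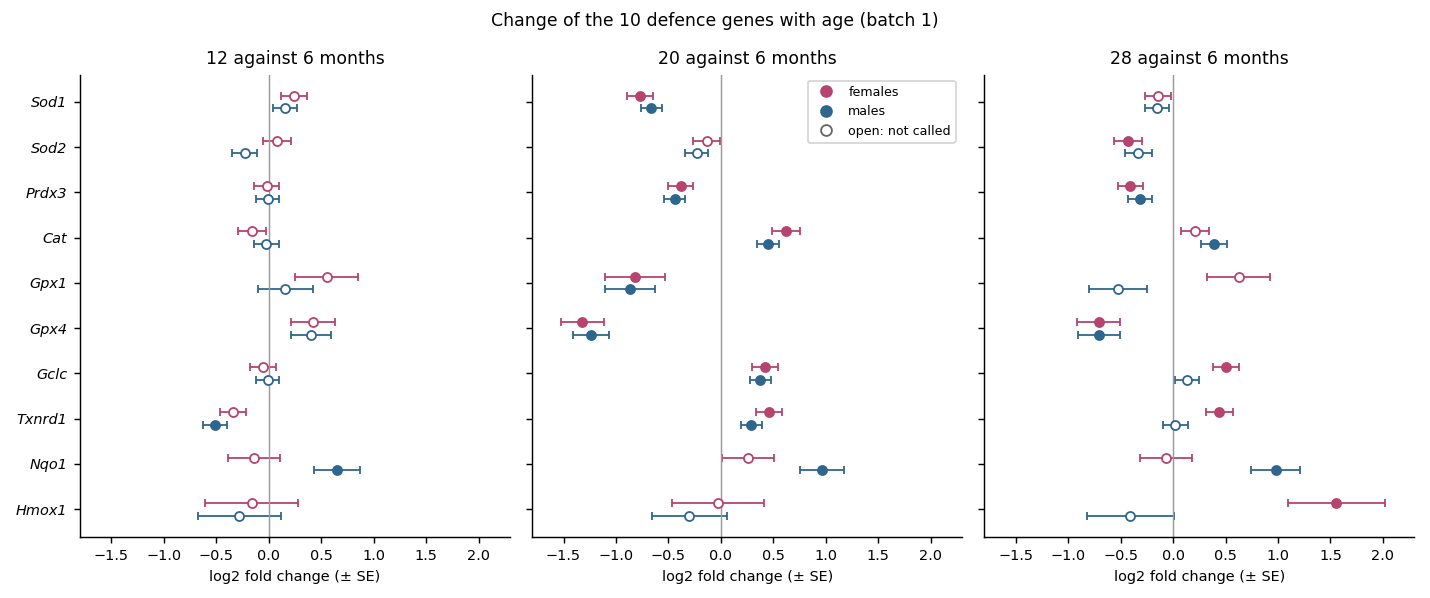
Log2 fold change with its SE for each member at 12, 20 and 28 months against 6 months, females and males in batch 1; filled points passed an adjusted p of 0.05 in edgeR's test and open points did not. Gpx4 lies lowest at 20 months, at -1.32 in females and -1.24 in males, and Hmox1 at 28 months in females lies highest at 1.56.

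Sod1 (chr16:90220754-90226329, plus strand), the copper-zinc superoxide dismutase, fell at 20 months in both sexes. Its values in the 6-month females were 115, 176, 172 and 151 CPM in replicates 1 to 4. In the 20-month females the lowest, median and highest were 85.3, 91.1 and 95.1 CPM. Every 20-month female lay below every 6-month female, and Sod1 fell by 0.77 on the log2 scale (SE 0.12, edgeR adjusted p = 5.24e-07). In males the lowest, median and highest were 132, 154 and 173 CPM at 6 months and 85.4, 95.8 and 127 CPM at 20 months. The male groups did not overlap either, and Sod1 fell by 0.66 (SE 0.10, adjusted p = 6.42e-08).

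At 28 months Sod1 stood between these levels. The batch 1 females ran from 104 through a median of 134 to 186 CPM, and the batch 1 males had 148, 137, 134, 135 and 132 CPM in replicates 11 to 15. Both groups overlapped the 6-month mice of their sex, and the log2 change was -0.15 in each. Against 20 months neither group overlapped, and Sod1 rose by 0.62 in females (SE 0.11, adjusted p = 2.6e-05) and by 0.51 in males (SE 0.11, adjusted p = 3.67e-04). At 12 months Sod1 ran from 154 to 240 CPM in females and from 130 to 190 CPM in males, and neither change passed the test. Its highest group mean was 182 CPM in the 12-month females and its lowest was 90.3 CPM in the 20-month females.

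Sod2 (chr17:13006846-13040063, plus strand), the manganese enzyme of the mitochondrial matrix, passed the test against 6 months in the females of 28 months alone, and the difference between the sexes in that change did not pass its own test. The 6-month females had 302, 315, 337 and 308 CPM, and the 28-month females of batch 1 ran from 182 through 226 to 303 CPM. The ranges touched only at their ends, and Sod2 fell by 0.43 (SE 0.13, adjusted p = 0.0167). In the 6-month males it ran from 304 through 417 to 472 CPM, the highest mean of any group at 402 CPM. The 28-month males of batch 1 had 283, 319, 342, 330 and 324 CPM, which overlapped them, with a log2 change of -0.33 (SE 0.13, adjusted p = 0.0608). At 20 months Sod2 ran from 259 to 321 CPM in females and from 314 to 395 CPM in males, with log2 changes of -0.14 and -0.23 that did not pass. The decreases of Sod2 in males passed at each of these ages in 8 of 13 alternatives, DESeq2 and limma-voom among them (adjusted p = 0.0494 and 0.00268 at 20 months).

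Catalase, Cat (chr2:103453849-103485160, minus strand), breaks down hydrogen peroxide in peroxisomes and was higher at 20 months. The 6-month females had 234, 207, 170 and 172 CPM, and the 20-month females ran from 257 through 304 to 336 CPM. These groups did not overlap, and Cat rose by 0.62 (SE 0.13, adjusted p = 1.15e-04). The 6-month males ran from 147 through 199 to 227 CPM and the 20-month males from 230 through 261 to 312 CPM. The male groups also lay apart, and Cat rose by 0.45 (SE 0.11, adjusted p = 4.04e-04). In the 28-month males of batch 1 the values were 252, 244, 267, 286 and 231 CPM, all above the 6-month males, and Cat rose by 0.39 (SE 0.12, adjusted p = 0.0204). The 28-month females of batch 1 spread from 151 through 234 to 269 CPM, overlapped the 6-month females (0.21, not passing), and were lower than the 20-month females, by -0.41 (SE 0.12, adjusted p = 0.00587). That call of Cat was lost when libraries high in skin or marrow transcripts were left out (-0.36), with length and GC offsets (-0.44, adjusted p = 0.0515) and when the fit held the compared groups alone. At 12 months Cat ran from 149 to 239 CPM in females and from 153 to 258 CPM in males, without a change that passed.

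Gpx4 (chr10:80047166-80056439, plus strand), the glutathione peroxidase that reduces lipid hydroperoxides in membranes, had the largest decrease of the members at 20 months. Its values in the 6-month females were 342, 607, 816 and 511 CPM, and the 20-month females ran from 184 through 226 to 259 CPM. The groups did not overlap, and Gpx4 fell by 1.32 (SE 0.21, adjusted p = 3.5e-07). The 6-month males ran from 399 through 519 to 643 CPM and the 20-month males from 187 through 222 to 268 CPM. Every 20-month male lay below every 6-month male, and Gpx4 fell by 1.24 (SE 0.17, adjusted p = 4.42e-09).

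Gpx4 was also lower at 28 months than at 6 months. The batch 1 females ran from 252 through 336 to 488 CPM, overlapping the 6-month range, and Gpx4 fell by 0.71 (SE 0.21, adjusted p = 0.0116). The batch 1 males had 385, 333, 271, 300 and 326 CPM, all below the 6-month males, and Gpx4 fell by 0.71 (SE 0.20, adjusted p = 0.00921). Against 20 months it rose by 0.61 in females (SE 0.19, adjusted p = 0.0104) and by 0.53 in males (SE 0.18, adjusted p = 0.0293), and the males of these ages did not overlap. At 12 months Gpx4 had its highest group mean, 761 CPM in females, with a range of 458 to 1244 CPM; its log2 change of 0.42 (SE 0.21) did not pass. Mouse Gpx4 has a processed pseudogene with its own ID in the table, and RSEM divides shared reads between such copies by estimate.

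Gpx1 (chr9:108338903-108340343, plus strand), the abundant soluble glutathione peroxidase of many cell types, fell at 20 months too. The 6-month females had 35.4, 38.5, 65.3 and 40.7 CPM, and the 20-month females ran from 23.4 through 25.7 to 28 CPM. The groups did not overlap, and Gpx1 fell by 0.82 (SE 0.29, adjusted p = 0.0199). The 6-month males ran from 36.9 through 50.1 to 67.5 CPM and the 20-month males from 22 through 29.6 to 37.3 CPM. Only the ends of the male ranges met, and Gpx1 fell by 0.87 (SE 0.24, adjusted p = 0.00157).

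The batch 1 females of 28 months had 62.5, 40.7, 161, 39.4, 79.1 and 33.5 CPM of Gpx1 in replicates 8 to 13. All lay above the 20-month females, and Gpx1 rose by 1.44 against them (SE 0.27, adjusted p = 4.18e-05); against 6 months the change of 0.62 did not pass. The highest values were in replicates 10, 12 and 8, the libraries with skin or marrow transcripts. Without such libraries the 28-month against 20-month change was 0.60 (adjusted p = 0.0736). Summed neutrophil markers (12 in the list) were 530.8 and 1571 CPM in replicates 12 and 10, and keratinocyte markers 11170 CPM in replicate 8. In the 20-month females neutrophil markers were at most 2.29 CPM, with Mpo, Ly6g and Camp at 0, and keratinocyte markers at most 12.6 CPM. The part of those cells in the Gpx1 level was not tested otherwise. In the batch 1 males of 28 months Gpx1 was 56.4, 34.4, 25.9, 31.1 and 32.5 CPM, and it did not differ past the threshold from 6 or 20 months.

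Prdx3 (chr19:60864051-60874556, minus strand), the peroxiredoxin of mitochondria, was lower at both later ages. The 6-month females had 181, 191, 201 and 194 CPM and the 20-month females ran from 138 through 146 to 158 CPM, with no overlap and a decrease of -0.38 (SE 0.12, adjusted p = 0.0076). The 28-month females of batch 1 ran from 110 through 139 to 182 CPM, and Prdx3 fell by 0.41 (SE 0.12, adjusted p = 0.0119). Among males the 6-month values ran from 170 through 215 to 239 CPM. The 20-month males spanned 136 to 180 CPM, overlapping at the lower end of that range, and Prdx3 fell by 0.44 (SE 0.10, adjusted p = 1.19e-04). The 28-month males of batch 1 had 161, 169, 167, 170 and 178 CPM, and Prdx3 fell by 0.32 (SE 0.11, adjusted p = 0.0432). It did not change past the threshold at 12 months or between 20 and 28 months in either sex.

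Gclc (chr9:77754535-77794485, plus strand) encodes the catalytic subunit of glutamate-cysteine ligase, the limiting step of glutathione synthesis, and was higher at 20 months in both sexes and at 28 months in females. The 6-month females had 16.1, 16.0, 14.6 and 14.7 CPM. The 20-month females ran from 16.8 through 19.6 to 25.0 CPM, all above them, and Gclc rose by 0.42 (SE 0.13, adjusted p = 0.00515). The 28-month females of batch 1 ran from 17.2 through 22.3 to 25.8 CPM, again without overlap, and Gclc rose by 0.50 (SE 0.13, adjusted p = 0.00354). In males it ran from 12.7 through 16.1 to 18.3 CPM at 6 months and from 17.5 through 20.6 to 23.8 CPM at 20 months. These ranges met only at their ends, and Gclc rose by 0.38 (SE 0.10, adjusted p = 0.00159). The batch 1 males of 28 months had 18, 16.2, 15.7, 16.5 and 20.1 CPM, a change of 0.13 that did not pass.

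Txnrd1 (chr10:82833951-82897712, plus strand), the cytosolic thioredoxin reductase, was lower at 12 months in males and higher at 20 months in both sexes. The 6-month males ran from 75.1 through 81.4 to 89.3 CPM and the 12-month males from 44 through 56.2 to 75.6 CPM. Only the highest 12-month male reached the 6-month range, and Txnrd1 fell by 0.51 (SE 0.11, adjusted p = 0.00174). The 20-month males ran from 79.4 through 102 to 114 CPM, overlapping the 6-month males, and Txnrd1 rose by 0.29 (SE 0.10, adjusted p = 0.0166). In females the 6-month values were 74.9, 64.0, 47.7 and 69.3 CPM. The 20-month females ran from 72 through 90.8 to 100 CPM and Txnrd1 rose by 0.46 (SE 0.13, adjusted p = 0.00247). The 28-month females of batch 1 ran from 68.8 through 86.1 to 104 CPM and Txnrd1 rose by 0.44 (SE 0.13, adjusted p = 0.0102), both groups overlapping the highest 6-month female. The 12-month females ran from 35.4 to 65.4 CPM, and their change of -0.34 (SE 0.12, unadjusted p = 0.0077) had an adjusted p of 0.22.

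Nqo1 (chr8:107388225-107403206, minus strand), a quinone reductase and widely used readout of NRF2, was higher in older males. The 6-month males, the lowest group, ran from 18.4 through 34.4 to 59 CPM. The 12-month males ran from 46.9 through 57.4 to 67 CPM, and Nqo1 rose by 0.65 (SE 0.22, adjusted p = 0.0492). The 20-month males ran from 47.7 through 70.5 to 110 CPM and Nqo1 rose by 0.97 (SE 0.21, adjusted p = 7.67e-05). The 28-month males of batch 1 had 70.7, 66.2, 75.1, 84.3 and 55.9 CPM and Nqo1 rose by 0.98 (SE 0.23, adjusted p = 0.00239). Each of these groups overlapped the highest 6-month male. In females Nqo1 was 46.6, 71.9, 50.5 and 49.6 CPM at 6 months, and 39.4 to 87.6 CPM at 20 months, with changes of -0.14, 0.26 and -0.07 at 12, 20 and 28 months that did not pass. The difference between the sexes in the change to 28 months was 1.04 (SE 0.34, unadjusted p = 0.0029), and its adjusted p was 0.15.

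Hmox1 (chr8:75093621-75100589, plus strand), the inducible heme oxygenase, was higher in the batch 1 females of 28 months. The 6-month females had 4.61, 5.21, 6.86 and 3.67 CPM, and the 20-month females ran from 4.15 through 5.28 to 5.53 CPM. The 28-month females had 11.6, 12.2, 25.9, 9.17, 8.26 and 23 CPM in replicates 8 to 13. Every one lay above both younger groups, and Hmox1 rose by 1.56 against 6 months (SE 0.46, adjusted p = 0.0126) and by 1.58 against 20 months (SE 0.40, adjusted p = 0.0019). Replicates 9, 11 and 13, below the 100 CPM limit for skin or marrow transcripts, had 12.2, 9.17 and 23 CPM, and with these as the only 28-month females the change against 6 months was 1.59 (adjusted p = 0.0309). Summed macrophage markers (12 of 12 detected) were 44.9 to 227 CPM at 28 months, median 118, and 32 to 133 CPM at 6 months, median 101. Replicate 13, with 23 CPM of Hmox1, had the lowest macrophage sum of its group, 44.9 CPM. Neutrophil markers were 2.66 to 1571 CPM, 61.4 CPM in replicate 9 among them, against 0.771 to 2.53 CPM, with Mpo, Ly6g and Cd177 at 0 at 6 months; their part in the Hmox1 level was not tested further. In males Hmox1 had a median of 4.46 CPM at 6 months, with replicate 1 at 21.3 CPM, and 8.86, 4.42, 3.19, 4.52 and 5.14 CPM at 28 months in batch 1, without a change that passed. At 12 months Hmox1 spread from 0.0892 through 4.48 to 9.53 CPM in females and from 4.27 through 5.70 to 7.27 CPM in males. The sexes' changes to 28 months differed by -1.96 (SE 0.62, unadjusted p = 0.0021, adjusted p = 0.13), and by -2.35 (adjusted p = 0.0411) without the libraries against their sex label.

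**Figure D3:**
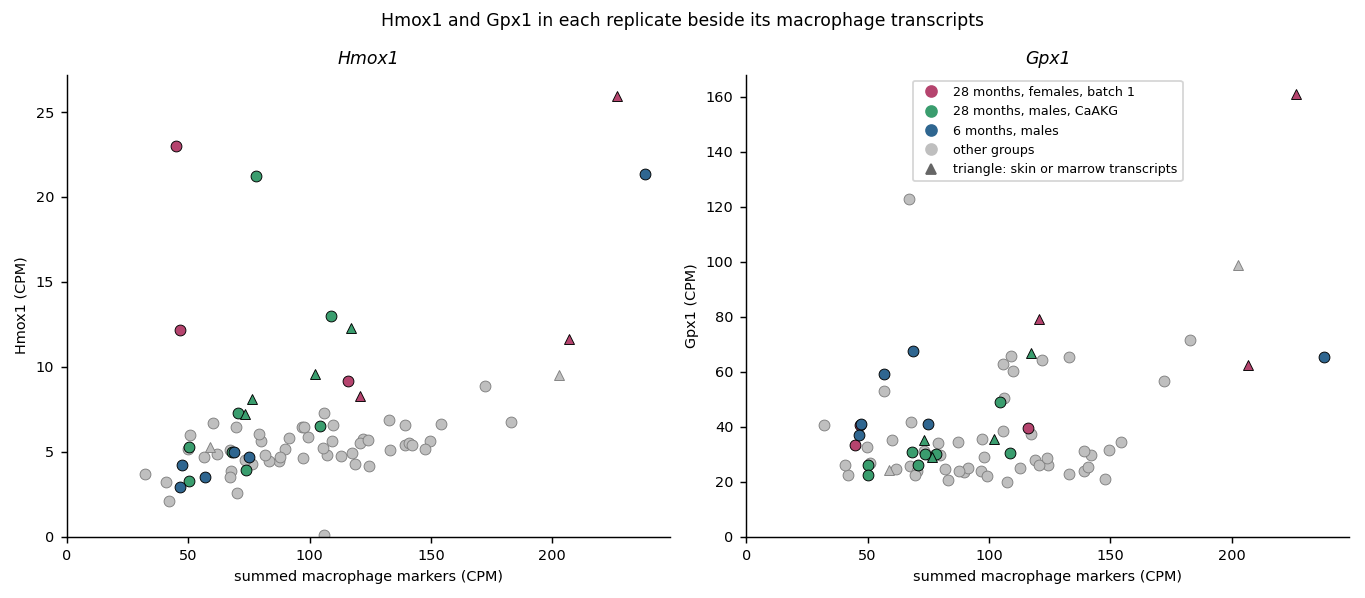
Hmox1 and Gpx1 in CPM against the summed level of 12 macrophage markers, 1 point per replicate, by group; triangles are libraries with skin or marrow transcripts. Hmox1 at 25.9 and 23 CPM belongs to 2 batch 1 females of 28 months, only the first of them a triangle.

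Several of these calls rested on single libraries. Without replicate 3 of the 6-month females, which went against its sex label, Gpx1 and Txnrd1 at 20 months and Sod2, Gpx4, Prdx3 and Txnrd1 at 28 months no longer passed in females. With the libraries high in skin or marrow transcripts left out, Sod2 (-0.36, adjusted p = 0.0828), Gpx4 (-0.49, adjusted p = 0.158) and Prdx3 (-0.30, adjusted p = 0.0997) did not pass at 28 months in females either. In males Txnrd1 at 20 months was lost without replicate 3 or 4 of the 6-month group, and Cat at 28 months without replicate 13 or 14 of that age or replicate 1 or 4 of the 6-month group. Prdx3 at 28 months in males was lost without replicates 11, 14 or 15 of that age or 2, 5 or 6 of the younger group, and Nqo1 at 12 months without any of 10 of the 12 libraries, all but replicate 3 of each group. When the fit held the compared groups alone, 0 members passed at 28 months in females, where Hmox1 kept a log2 change of 1.57 (adjusted p = 0.0909), and 0 at 12 months in males. In these fits 0% of all genes passed at 28 months in females, and 3.44% at 12 months in males.

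The direct contrast of 28 with 20 months shares its groups with the contrasts above. In females 5 of 10 members passed, against 29.9% of all genes: Sod1, Gpx1, Gpx4 and Hmox1 rose, where 17.3% of genes were higher, and Cat fell, where 12.6% were lower. In males 2 of 10 passed, Sod1 and Gpx4, against 17% of all genes and 8.25% in the higher direction. The call of Gpx4 in males was lost without replicates 11, 12 or 15 of the 28-month or 5 or 7 of the 20-month group.

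Transcript length ran alongside these changes. The 4 members that fell at 20 months in both sexes have the shortest transcripts of the 10: Sod1 with 641 bases, Gpx4 with 959, Gpx1 with 1072 and Prdx3 with 1478. Over all genes, those under 1500 bases had a median log2 change at 20 months of -0.66 in females and -0.62 in males, and those over 4000 bases one of 0.62 and 0.61. Between 20 and 28 months the short genes moved the other way, with medians of 0.41 and 0.34. With offsets for length and GC content in the fit, Gpx4 still fell at 20 months, by 0.68 in females (adjusted p = 0.0077) and by 0.70 in males (adjusted p = 2.47e-04). Sod1 then changed by -0.20 (adjusted p = 0.34) and -0.17 (adjusted p = 0.24), and Gpx1 and Prdx3 no longer passed in either sex. Cat in females (0.54, adjusted p = 0.024) and Nqo1 in males (1.13, adjusted p = 1.02e-04) also kept their calls, while Cat in males did not (0.34, adjusted p = 0.0579). Gclc and Txnrd1 lost theirs in both sexes, with changes of 0.01 to 0.20.

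Sod2, with the longest transcript of the members at 5861 bases, moved the other way under the offsets. It fell by 0.85 in females at 20 months (adjusted p = 6.33e-04) and by 0.96 in males (adjusted p = 7.28e-07), and at 28 months by 0.64 in each sex (adjusted p = 0.026 and 0.0168). At 28 months Hmox1 in females (1.60, adjusted p = 0.016) and Nqo1 in males (1.01, adjusted p = 0.0089) held. Gpx4 in females then changed by -0.48 (adjusted p = 0.093), and Gpx4 in males by -0.52 (adjusted p = 0.058). Prdx3 lost its calls at 28 months, at -0.29 in females (adjusted p = 0.252) and -0.23 in males (adjusted p = 0.382). Gclc (0.35) and Txnrd1 (0.27) in females and Cat (0.29) in males lost theirs at that age as well. Between 20 and 28 months Gpx1 (0.99, adjusted p = 0.0023) and Hmox1 (1.31, adjusted p = 0.013) held in females, while Sod1 and Gpx4 passed in neither sex. The offsets also take out any change of a kind of gene that goes with length, and what made length move with the groups was not tested.

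**Figure D4:**
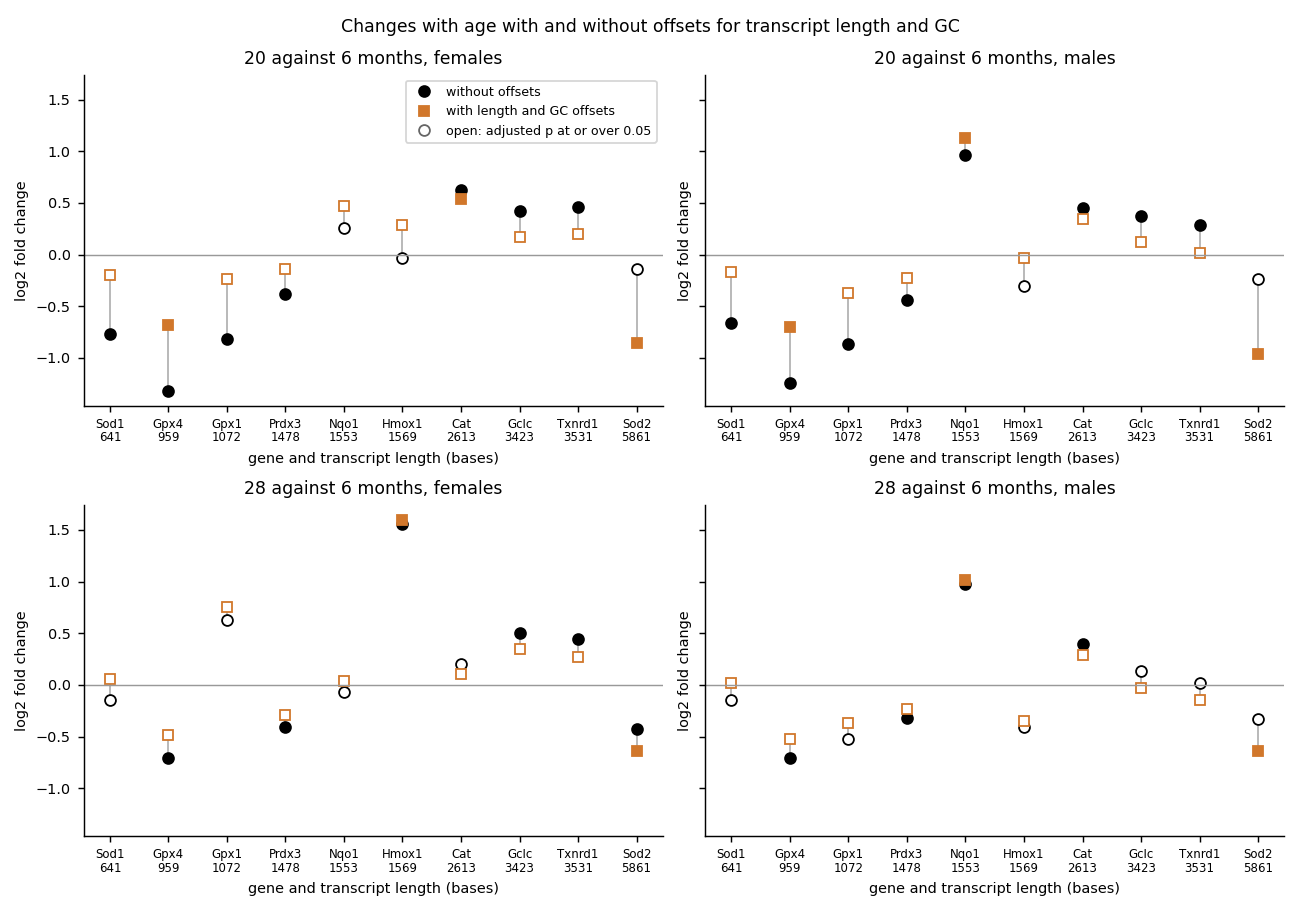
Log2 fold change of each member at 20 and 28 months against 6 months, without and with offsets for transcript length and GC content, in females and males; genes are ordered by transcript length. At 20 months the short members Sod1, Gpx4, Gpx1 and Prdx3 move towards 0 with the offsets. The long Sod2 moves down, to -0.85 in females and -0.96 in males at 20 months.

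CaAKG was compared with control males of 28 months within batch 2, and 0 of 10 members passed, against 0.0659% of all genes. Hmox1 and Gpx1, 2 of 10, were under 0.05 before adjustment, where 1216 of 18218 genes were, and DESeq2 and limma-voom called 0. Hmox1 in the controls ran from 4.44 through 5.06 to 6.69 CPM, and in the treated males from 3.26 through 7.25 to 21.2 CPM. The treated males overlapped the controls at both ends, with a log2 difference of 0.68 (SE 0.29, unadjusted p = 0.024, adjusted p = 0.64). The highest treated values were 21.2 CPM in replicate 5, 13.0 in replicate 3 and 12.3 in replicate 7; their neutrophil markers were 17.8, 1.25 and 900.4 CPM, while the controls had 0.830 to 5.13 CPM. Gpx1 ran from 20.5 through 24.6 to 35.1 CPM in controls and from 22.5 through 30.3 to 66.8 CPM with CaAKG, a difference of 0.42 (SE 0.20, adjusted p = 0.69). Its highest value, 66.8 CPM, was again in replicate 7, and leaving out the libraries high in skin or marrow transcripts the difference was 0.25. The other 8 members differed by -0.12 to 0.08, and their median with the former 2 was -0.017 beside 0.015 over all genes.

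Sex differences were compared within an age and batch. At 20 months 0 of 10 members passed, against 0.22% of all genes. There 1 member was under an unadjusted p of 0.05, where 780 of 18218 genes were, with 0 called by DESeq2 and 1 by limma-voom. That member was Sod2, higher in males by 0.25 (SE 0.11, adjusted p = 0.95 by edgeR). At 28 months in batch 1, 3 of 10 passed, against 5.65% of all genes, 1 higher in males where 1.81% were and 2 lower where 3.84% were. Sod2 was higher in males by 0.45 (SE 0.12, adjusted p = 0.0244), and Hmox1 and Gpx1 were lower, by -1.52 (SE 0.42, adjusted p = 0.0254) and -0.94 (SE 0.28, adjusted p = 0.0352). With those high in skin or marrow transcripts left out, 0 of the 3 kept their calls: Gpx1 differed by -0.10 (adjusted p = 0.90), Hmox1 by -1.53 (adjusted p = 0.054) and Sod2 by 0.41 (adjusted p = 0.0816). Gclc, at -0.33 with all libraries, then passed, at -0.47 (adjusted p = 0.0382). Hmox1 and Gpx1 also lost their calls without female replicate 10 or any of male replicates 12 to 15, and Sod2 without female replicates 8, 9 or 10 or male replicates 12 to 15; without female replicate 10 the Gpx1 difference was -0.50. When the fit held these 2 groups alone, 0 passed, against 0.144% of all genes. At 28 months in batch 2, 0 of 10 passed, against 1.3% of all genes. Here 1 member was under an unadjusted p of 0.05, where 2529 of 18218 genes were, with 0 called by DESeq2 and 1 by limma-voom. It was again Sod2 (0.33 higher in males, SE 0.10, adjusted p = 0.095 by edgeR).

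Tests of the difference between the sexes in the age changes called 0 members. For the change from 6 to 20 months, 0% of all genes passed. Of the members 1, Nqo1, was under an unadjusted p of 0.05 (0.71, SE 0.32), where 844 of 18218 genes were, and DESeq2 and limma-voom called 0. For the change from 6 to 28 months 0.329% of all genes passed. Under an unadjusted p of 0.05 were 5 members, and 2157 of 18218 genes. DESeq2 called 1 member, Hmox1, and limma-voom 0.

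Batch 2 females of 28 months differed from batch 1 females of that age in 4 of 10 members, against 19.8% of all genes, all lower where 13% of genes were lower. Gpx1 ran from 20.0 through 25.8 to 34.6 CPM in batch 2, and fell by 1.39 (SE 0.25, adjusted p = 1.74e-04). Its difference was -0.53 (adjusted p = 0.133) once replicates 8, 10 and 12 of batch 1 and the other libraries high in skin or marrow transcripts were left out, and no longer passed. Hmox1 ran from 2.59 through 5.15 to 6.62 CPM, all below the batch 1 females, and fell by 1.56 (SE 0.38, adjusted p = 0.00305). Sod1 fell by 0.40 (SE 0.11, adjusted p = 0.00663) and Gpx4 by 0.58 (SE 0.18, adjusted p = 0.0181), the latter lost without batch 2 replicate 6 or 7 or batch 1 replicate 13. Both calls were also lost with limma-voom, a replicate block, the compared groups alone, or length and GC offsets. With the offsets Sod1 differed by -0.02 (adjusted p = 0.954) and Gpx4 by -0.23 (adjusted p = 0.439). The higher Hmox1 of the 28-month females was thus seen in batch 1 and not in batch 2, where their median was within the 6-month range. In males 0 of 10 members differed between batches, against 1.02% of all genes. Under an unadjusted p of 0.05 were 3 members, and 2579 of 18218 genes, and DESeq2 and limma-voom called 2 members each. Sod1 was 92.0 to 128 CPM in the batch 2 males, all below the batch 1 males, with a difference of -0.31 (SE 0.10, adjusted p = 0.12). The test of whether the batch difference depended on sex, added after the data were seen, called 0 members and 0% of all genes. Under an unadjusted p of 0.05 were 2 members, Hmox1 and Gpx1, and 1842 of 18218 genes. DESeq2 and limma-voom called 0 members.

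Among genes that govern NRF2, Nfe2l2 itself rose at 20 months in males by 0.55 (SE 0.14, adjusted p = 4.69e-04), while its change of 0.33 in females did not pass (adjusted p = 0.112). At 28 months its changes were 0.22 in females and 0.21 in males, and neither passed. Keap1, the adaptor that marks NRF2 for degradation, passed in no comparison, with changes from -0.21 to 0.26. Bach1, the repressor of Hmox1, rose at 20 months by 1.04 in females (SE 0.16, adjusted p = 2.56e-07) and by 0.68 in males (adjusted p = 7.74e-06), and in the 28-month females by 0.64 (adjusted p = 0.00338). Rbx1, a subunit of the KEAP1 ubiquitin ligase, fell at 20 months by 0.72 in females (adjusted p = 6.15e-07). At that age all genes over 4000 bases had median log2 changes of 0.62 in females and 0.61 in males. For those under 1500 bases the medians were -0.66 and -0.62. The part of transcript length in the changes of these regulators was not tested. Of 10 regulators, 3 rose and 1 fell at 20 months in females, and 2 rose and 1 fell in males. Over all genes 18.2% rose and 17.8% fell in those females, and 22.6% rose and 22% fell in those males, so these counts are near the background.

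Other NRF2 targets (31 tested) split in direction at 20 months, in numbers near the shares of all genes. Those shares were 18.2% higher and 17.8% lower in females, and 22.6% higher and 22% lower in males. In females 4 rose and 6 fell, with Mgst1, a microsomal glutathione transferase, lower by -1.52 and Gstp1, a cytosolic one, by -0.63. Replicate 3 of the 6-month females went against its sex label, and Mgst1 was higher in males at 20 and 28 months. The part of that library in the Mgst1 change was not tested. In males 8 rose and 4 fell, with the efflux pumps Abcc4 and Abcc1 higher by 1.09 and 0.86 and the epoxide hydrolase Ephx1 by 0.96. The part of transcript length in the changes of this list was not tested either. At 28 months 9 rose and 1 fell in females, among them Pgd of the pentose phosphate pathway (0.69, adjusted p = 0.00217) and Gstm1 (0.54, adjusted p = 0.00381), while in males 4 rose and 2 fell; over all genes 9.91% rose in those females and 6.76% in those males. Their median at 28 months in females was 0.46, beside 0.091 over all genes. Between 20 and 28 months in females 14 rose and 0 fell, where 17.3% of all genes rose, with Txn1, the cytosolic thioredoxin, higher by 0.77 (adjusted p = 2.74e-05). Of these 6 females of 28 months, 3 carried skin or marrow transcripts (keratinocyte markers of 11170 CPM in replicate 8, neutrophil markers of 1571 and 530.8 CPM in replicates 10 and 12), and their part in these counts was not tested. A match to the element's core was found for 9 of the 28 such genes with a promoter in the table.

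Among enzymes beside the members in the same steps, more fell than rose at 20 months, where 17.8% of all genes fell in females and 22% in males. Of 10 other superoxide and peroxide enzymes, 0 rose and 7 fell in females and 1 rose and 6 fell in males. Prdx5, a peroxiredoxin of mitochondria and peroxisomes, fell by 1.11 and 1.01, and Prdx2, a cytosolic one, by 0.76 and 0.68 in females and males. Ccs, the copper chaperone of SOD1, fell by 0.79 in females (adjusted p = 8.83e-05). Of 27 gene IDs for glutathione and thioredoxin supply, 1 rose and 13 fell in females and 2 rose and 14 fell in males, with Glrx5 lower by -1.24 and -1.26 and the mitochondrial thioredoxin Txn2 by -1.08 and -1.18. At 28 months the same list had 2 higher and 8 lower in females and 1 higher and 8 lower in males, where 9.04% and 9.38% of all genes fell. Of 18 other selenoproteins and selenium-handling genes, 2 rose and 9 fell in females at 20 months and 3 rose and 8 fell in males, with Selenow lower by -1.33 and -1.32. In the order given, the lists had median log2 changes at 20 months of -0.605, -0.46 and -0.32 in females. In males the medians were -0.47, -0.49 and -0.28. All genes under 1500 bases had medians of -0.66 in females and -0.62 in males. The part of transcript length in these counts was not tested.

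Sources of superoxide and peroxide and genes of heme and iron handling complete the setting of Hmox1. Of 12 sources, 2 rose and 0 fell at 20 months in females and 4 rose and 2 fell in males, with xanthine dehydrogenase Xdh higher by 1.19 and 1.41. At that age 18.2% of all genes rose and 17.8% fell in females, and 22.6% rose and 22% fell in males. At 28 months 3 rose in females, where 9.91% of all genes did: Rac2 (2.93), Cybb (2.15) and Ncf1 (1.97), parts of the phagocyte NADPH oxidase. Neutrophil markers were high in some of these libraries, and their part in these changes was not tested. Of 12 heme and iron genes, 1 rose and 5 fell at 20 months in females and 3 rose and 6 fell in males, beside the 20-month shares above. The ferritin heavy chain Fth1 was lower by -0.95 and -0.88. The part of transcript length in the changes of the sources and of the heme and iron genes was not tested. CaAKG changed 0 genes of any of these lists.

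**Figure D5:**
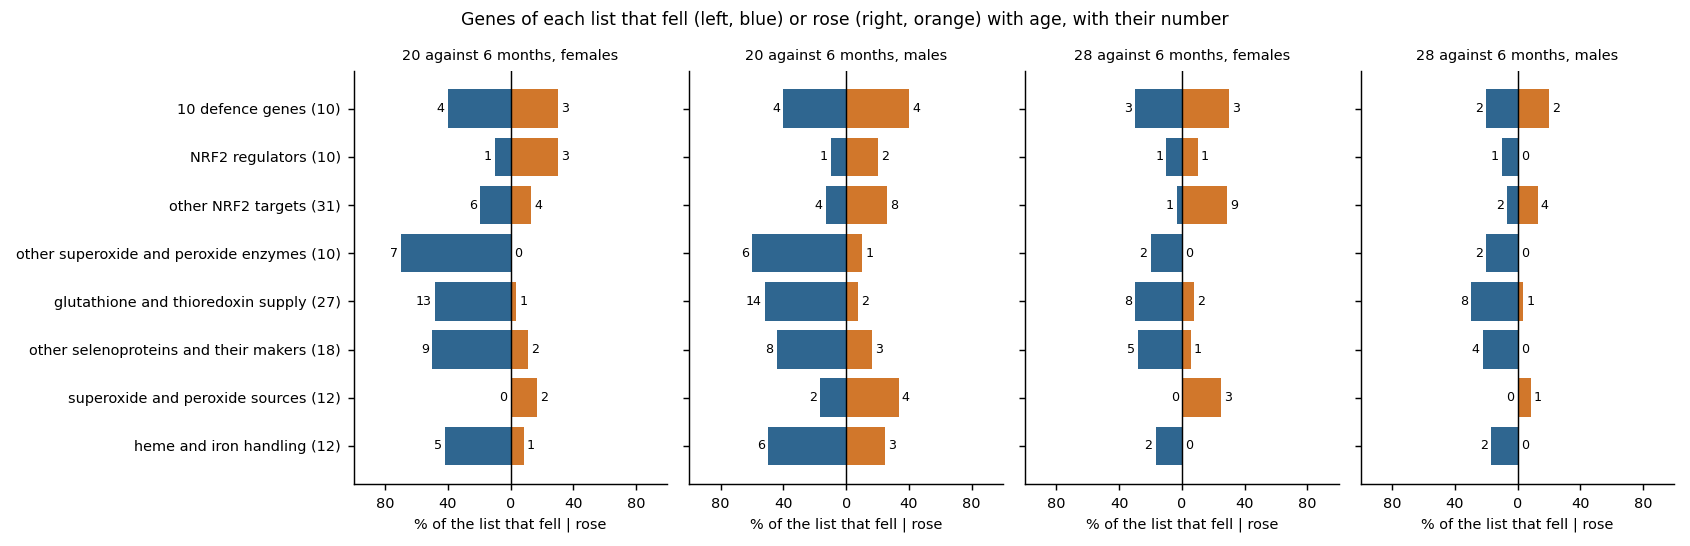
Share of each gene list that rose or fell, in percent of the genes tested, at 20 and 28 months against 6 months in females and males; bars to the left are genes that fell and bars to the right genes that rose in edgeR's test. Superoxide and peroxide enzymes and glutathione and thioredoxin supply lean to the left, and other NRF2 targets to the right at 28 months in females, with 9 of 31 higher. The counts are from the fit without offsets for transcript length.

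Within groups, some members varied together from mouse to mouse. Correlations of deviations from the group mean of log2 CPM were computed for 45 pairs over 77 replicates, permuting within groups. Of these, 12 positive and 3 negative ones passed an adjusted p of 0.05, and all share library depth and scaling. Libraries with skin or marrow transcripts, or against their sex label, were among the 77 replicates. Their part in these correlations, and that of transcript length, was not tested. The mitochondrial pair Sod2 and Prdx3 had Pearson's r = 0.871 and Spearman's rho = 0.809 (permutation p = 1e-05 for each, the smallest 100000 permutations can give, adjusted 0.00015 and 0.00022). Without the 2 replicates farthest from the median r was 0.825, and it was 0.921 in batch 1 and 0.752 in batch 2. Sod1 and Gpx4 had r = 0.793 and rho = 0.747 with the same p-values, 0.763 without the 2 farthest, and 0.810 and 0.764 within batches. Gpx1 and Hmox1 had r = 0.425 (permutation p = 0.007, adjusted 0.027) and rho = 0.427 (permutation p = 0.0008, adjusted 0.0054), 0.374 without the 2 farthest, and 0.445 and 0.377 within batches. Gpx1 ran against Cat, with r = -0.443 (permutation p = 0.002, adjusted 0.0076) and rho = -0.482 (permutation p = 0.0001, adjusted 0.0009), -0.472 without the 2 farthest, and -0.445 and -0.452 within batches.

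Over all 77 replicates, groups included, the genes most like each member were named by Pearson's r of log2(CPM + 1) among 7656 candidates with a mean of at least 10 CPM, as a description. Gpx4 ran closest to Mrps24 (0.980), Rplp0 (0.978) and Use1 (0.978), which encode parts of the mitochondrial and cytosolic ribosome and a vesicle fusion protein. Sod2 ran with Pdhx (0.907), Idh3a (0.897) and Coq5 (0.896), and Prdx3 with Vdac3 (0.942), Ndufa9 (0.927) and Sdhc (0.925), all genes of mitochondrial proteins. Cat ran with Fyco1 (0.825) and Smarca2 (0.816). Sod1 was nearest to Psma7 and Hint1 (both 0.945) and Trappc2l (0.943), Gpx1 to H2afz (0.895), Tmsb4x (0.868) and Ppia (0.860), and Txnrd1 to Foxj3 (0.905), Fam120a (0.901) and Map3k20 (0.900). The likeness was weaker for Gclc, whose nearest were Gnal (0.780), Casc3 (0.778) and Ncam1 (0.763), and for Nqo1, with Ephx1 (0.709), Acss1 (0.679) and Dixdc1 (0.664). Hmox1 had the weakest, with Gclm (0.645), the modifier subunit of glutamate-cysteine ligase, then Cap1 (0.627) and Il6ra (0.60).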

How the data were processed

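RNA from mouse soleus was sequenced as paired reads of 150 nt on an Illumina NovaSeq, per the labels' protocols. The authors' deposited table holds expected counts per gene ID from RSEM 1.3.3 after FastQC and STAR 2.7.11b on mm10, per the submitters' processing notes; no source used here gives the annotation release or the strand setting. Of its columns, 78 were used and 55 that match no sample described here were not. The estimated counts were rounded (8.99% were not whole within 1e-06), and 2 libraries with 1 animal tag were summed to 1 replicate. Genes with too few counts were left out by edgeR's filter (minimum count 10, minimum total 15), which left 18218.

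All 11 groups entered 1 fit of edgeR 4.0.16 in R 4.3.3 (TMM scaling, quasi-likelihood test, two-sided, Benjamini-Hochberg adjustment over all genes tested, threshold 0.05), with 16 contrasts and 1 added after the data were seen. CPM values use the TMM library sizes. Gene positions and transcript lengths come from GENCODE annotation of GRCm38, and length bands end at 1500 and 4000 bases. A gene's length was that of a single annotated transcript, the longest of those marked as principal where there were any. The members and gene lists were chosen with earlier results of these data known. Named are all members, Nfe2l2, Keap1 and Nnt, up to 4 genes of each list with the smallest p among those called, and the 3 genes most like each member, of which 1 is not reported here. Libraries were set against their sex label by sex-linked transcripts at 10 CPM, and skin or marrow transcripts were counted from 100 CPM of summed markers. Marker lists covered slow and fast fibres, macrophages, neutrophils, erythroid cells, keratinocytes, adipocytes, endothelium and fibroblasts. Alternatives were DESeq2 1.42.0, limma 3.58.1 (voom with quality weights), other scaling and filters, a fit without the mitochondrial genome, a replicate block, offsets for length and GC content (a spline with 5 degrees of freedom, known for 97.5% of genes), sets of libraries left out, only the compared groups in the fit, and each library left out in turn. The fit was tested on simulated counts.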

Additional observations from a re-analysis of the deposited data

Results flagged for a closer look

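In 100 groups of values (each member in each group of 4 to 10 replicates), 11 held a replicate farther from its neighbours than the group's range allows at the 95% level of Dixon's test, a rule that chance alone meets in about 1 of 20 groups. In the 12-month females Sod1 was 240 CPM in replicate 4, with the others at 154 to 184. That library went against its sex label, with 46.5% mitochondrial transcripts and a TMM scaling factor of 0.403. Cat was 239 CPM in replicate 2 of the same group, with the others at 149 to 175. In the 20-month males Sod1 was 127 CPM in replicate 3 (others 85.4 to 102), and Sod2 was 395 CPM in replicate 8 (others 314 to 351). Gpx1 was 161 CPM in replicate 10 of the batch 1 females of 28 months (others 33.5 to 79.1), a library with 1571 CPM of neutrophil and 10690 CPM of erythroid markers. Gpx1 was also high in replicate 11 of the batch 1 males of that age, at 56.4 CPM (others 25.9 to 34.4), whose summed macrophage markers were 172.3 CPM. Gpx4 was 342 CPM in replicate 1 of the batch 2 control males (others 211 to 278). Nqo1 was 71.9 CPM in replicate 2 of the 6-month females (others 46.6 to 50.5). Hmox1 was 21.3 CPM in replicate 1 of the 6-month males (others 2.92 to 4.98), which had 238.2 CPM of macrophage and 49.7 CPM of neutrophil markers. Gclc was 20.4 CPM in replicate 3 of the 12-month males, a library against its sex label (others 13.3 to 15.3). Txnrd1 was 76.4 CPM in replicate 7 of the batch 2 females, the low end of its group (others 94.4 to 107).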

How the results depend on the processing

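No member's change that passed the test turned its direction under any alternative. Counts of members called moved as follows. With length and GC offsets 3 were called at 20 months against 6 in females (7 before) and 3 in males (8 before), 2 at 28 months in each sex (6 and 4 before), 1 at 12 months in males (2 before), 2 and 0 at 28 against 20 months in females and males (5 and 2 before), and 2 between batches in females (4 before). Shares of all genes fell too, to 15.7% and 30.4% at 20 months against 6 in females and males. At 28 against 6 months they were 7.84% and 8.19%, and at 12 months in males 4.77%. At 28 against 20 months they were 11.5% and 1.41%, and between batches in females 8.17%. With a replicate block, 3 and 1 were called at 28 against 6 months in females and males, against 5.98% and 1.91% of all genes. In those males the earlier calls of Cat, Gpx4, Prdx3 and Nqo1 were all lost, so the 1 was another member. With that block 0 were called at 28 against 20 months in males, against 4.8% of all genes. Between the sexes at 28 months in batch 1, 0 were called (3 before), against 0.0823%, and between batches in females 2, against 7.63%. Replicate numbers did not pair the samples, with correlations of same-numbered deviations from -0.176 to 0.173. Without libraries against their sex label, 2 were called at 28 against 6 months in females, 1 between batches in males (0 before) and 1 for sex by age at 28 months (0 before). Of all genes 10.1%, 3.05% and 0.541% passed there, in that order. Without libraries with skin or marrow transcripts, 3 were called at 28 against 6 months in females, 3 at 28 against 20 months in females and 1 between the sexes in batch 1. The shares of all genes were 11.1%, 23.5% and 3.13%, in that order. Without both sets, 3 were called at 28 against 6 months in females, 4 at 12 months in males, 1 between the sexes in batch 2 (0 before), 2 between batches in males and 1 for sex by age at 28 months. All genes passed there at shares of 7.32%, 20.5%, 3.06%, 4.63% and 2.52%, in that order. When the fit held the compared groups alone, 0 were called at 28 against 6 months in females, 0 at 12 months in males, 4 at 28 against 20 months in males, 1 between the sexes at 20 months (0 before), 0 and 1 between the sexes at 28 months in batches 1 and 2, and 2 and 3 between batches in females and males. In that order, 0%, 3.44%, 34%, 2.87%, 0.144%, 4.75%, 7.11% and 9.62% of all genes passed. With limma-voom 4 were called at 12 months and 4 at 28 against 20 months in males, 1 between the sexes at 20 months and 1 at 28 months in batch 2, and 2 and 2 between batches in females and males. Shares of all genes were 17.4%, 36.2%, 3.7%, 9.84%, 6.98% and 16.2%, in that order. DESeq2 called 2 between batches in males and 1 for sex by age at 28 months, against 8% and 1.6% of all genes. Without a low-count filter 1 was called at 12 and 2 at 28 against 6 months in males, against 4.01% and 6.53% of all genes. Without the mitochondrial genome 1 was called at 12 months in males, against 10.2%. The causes were not tested. RLE scaling, a minimum count of 50 and keeping the tagged libraries apart moved no count by over 1.5 times.

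Leaving out 1 library at a time gave 0 to 1 called members at 12, 5 to 7 at 20 and 2 to 6 at 28 months against 6 in females, and 1 to 2, 7 to 9 and 2 to 5 in males. The ranges were 5 to 6 and 1 to 3 at 28 against 20 months in females and males, 0 to 0 for CaAKG, 0 to 0 between the sexes at 20 months, 0 to 4 and 0 to 0 at 28 months in batches 1 and 2, 3 to 4 and 0 to 1 between batches in females and males, and 0 to 0 for both sex by age tests. Hmox1 and Gclc, at means of 6.66 and 19.6 CPM, rest on the fewest counts.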

Other observations

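Nnt, which supplies NADPH to mitochondrial glutathione and thioredoxin, is carried in a shortened form by some C57BL/6 substrains. It has 2 overlapping gene IDs in the table, between which RSEM divides reads, and their sum was 313 CPM in the 20-month females and 288 CPM in the 6-month females. In the 28-month females of batch 1 it was 196 CPM. Of the 2 IDs of Nnt, 1 passed the test between 20 and 28 months in females, with a change of -0.97 (adjusted p = 0.00667). In replicate 7 of the batch 2 females all its counts, 312 CPM, lay on 1 ID and the other was listed at 0.

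Mgst1, a microsomal glutathione transferase, was higher in males at 20 months by 1.63 on the log2 scale (adjusted p = 3.02e-04), at 28 months in batch 1 by 1.41 (adjusted p = 0.00369) and in batch 2 by 1.5 (adjusted p = 1.84e-04), the edgeR result in each case. None of the 10 members passed in more than 1 of these comparisons of the sexes.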
